A study of Saccharomyces cerevisiae with 22 samples.

Results

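Budding yeast strains carrying alanine in place of an asparagine of histone H3 (hht2-pm-N108A) were set directly against strains carrying alanine in place of the neighbouring leucine (hht2-pm-L109A). The comparison used 4 arrays of 22 in the series, chosen by their titles: 2 cultures of N108A and 2 cultures of L109A. The control strain hht2-wt, with 2 cultures, was used to place each difference. Every array set RNA of a strain against a shared wild-type reference pool. The strain was in Cy3 on culture a and in Cy5 on culture b of each strain. All samples are labelled BY4742 as their strain, and the point mutation is in HHT2, which encodes histone H3. What else was changed in the histone genes of these strains, hht2-wt included, is not given in the labels. Per the deposited protocol, cultures were started from independent colonies and grown in synthetic complete medium. The titles carry the number 2 for N108A and 1 for L109A and hht2-wt, and its meaning is not given, so whatever it marks cannot be told apart from the difference between the mutants.

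Histone H3 pairs with H4 through a fold built around a long central helix, and pairs of H3 and H4 form the core of the nucleosome. Both residues lie in that central helix, near the region where the H3 copies of a nucleosome meet. Alanine keeps the backbone and removes most of the side chain, polar in asparagine and hydrophobic in leucine. The comparison asks which genes separate replacements of adjacent residues.

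All values are log2 ratios of strain over the reference pool, called log2 ratios below, or differences between such ratios. The median spot signal in the strain channel over gene spots was 309 and 801 on the N108A arrays, 295 and 439 on the L109A arrays, and 365 and 597 on the hht2-wt arrays. Of 6388 gene probes, 114 and 99 were not above background in the strain channel on the N108A arrays, and 60 and 197 on the L109A arrays. URA3 was at log2 ratios of 3.66 and 4.09 in N108A and 3.73 and 4.17 in L109A, while MET17 was at −4.51 and −4.71 in N108A and −4.54 and −4.43 in L109A. These markers of strain construction thus had the same direction on the 4 arrays after the ratios were turned by the labelled dyes. All 7 a-specific genes were above the reference in N108A, L109A and hht2-wt, between 1.48 for ASG7 and 5.22 for STE2, both in L109A. All 6 measured alpha-specific genes were below it, from −6.01 for MF(ALPHA)1 in L109A to −0.67 for MATALPHA2 in N108A. MATALPHA2 was the closest to the reference, at −0.67 and −0.84 in N108A, −0.86 and −0.83 in L109A, and −0.86 and −0.87 in hht2-wt. BY4742 is an alpha strain, so with the dyes as labelled these values go against the labelled strain name for N108A, L109A and hht2-wt alike. Across 6388 probes, the log2 ratios of cultures a and b had a Pearson correlation of 0.946 in N108A and 0.941 in L109A. These probes share an array and a reference, so the correlations are descriptions.

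N108A and L109A differed at many genes. Of the 6388 probes, 996 were higher and 596 lower in N108A than in L109A at an adjusted p below 0.05 (limma, Benjamini-Hochberg over all probes), which is 24.9% of probes in all, 15.6% higher and 9.33% lower. The differences were mostly small. The median change among the probes called higher was 0.34 on the log2 scale, a fold of 1.27, and among those called lower it was −0.24, a fold of 0.844. The extremes were not symmetric: 98 probes were higher by at least 1.7-fold, while the lowest value of a called probe was −0.71. With culture a of L109A left out, 450 probes were higher and 129 lower. Without culture b of L109A the counts were 615 and 263, and without culture a of N108A they were 707 and 282. Without a dye term, 648 probes were higher and 256 lower. A total of 487 probes kept their call with each of the 4 arrays left out in turn.

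Each pair of cultures gives its own estimate of the difference. The difference between the a cultures and the difference between the b cultures had a Pearson correlation of 0.771 across 6388 probes, a description only, since all 4 arrays carry RNA of the reference pool. The plot of both pairs shows the calls in opposite quadrants with the higher ones reaching further from 0.

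**Figure D1:**
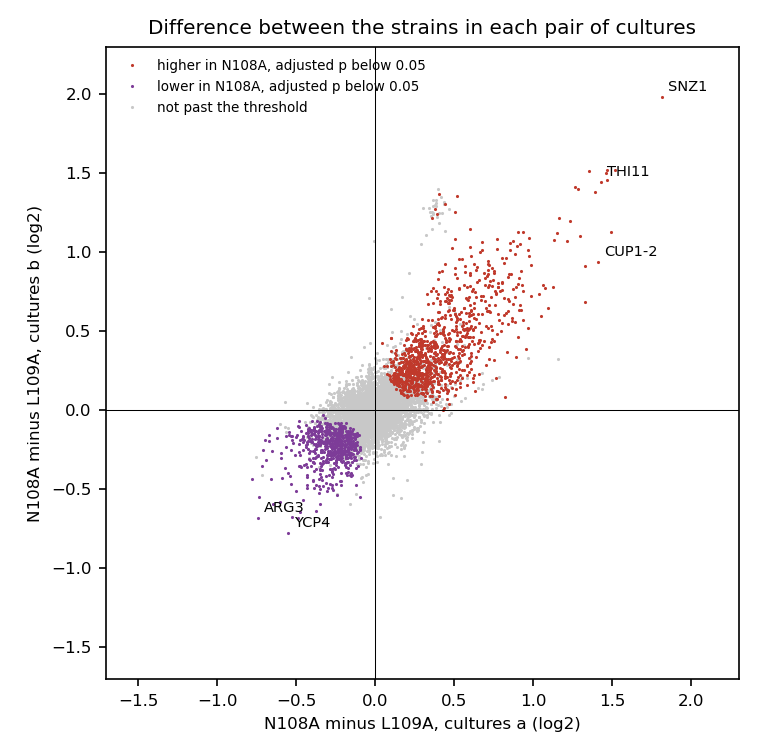
N108A minus L109A for each gene probe in cultures a (x axis) and in cultures b (y axis), both on the log2 scale. Red points are the 996 probes higher and purple points the 596 probes lower in N108A at an adjusted p below 0.05 (limma), and grey points are the rest. SNZ1 lies farthest from 0, and a small group of mostly grey points stands high in cultures b and less so in cultures a.

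Both mutants were also set against the control strain, and the counts were far apart. Against hht2-wt, 1829 probes (28.6%) differed in N108A, and 4 probes (0.0626%) differed in L109A, where 270 had an unadjusted p below 0.05. The SD of the log2 difference from hht2-wt over all probes was 0.25 in N108A and 0.0869 in L109A. For comparison, the SD of N108A minus L109A was 0.234, and the median standard error of a probe's difference was 0.0681 in all 3 comparisons. The 2 comparisons with hht2-wt share its arrays, so their values are given side by side below and were not correlated. No named gene was called in both N108A minus L109A and N108A minus hht2-wt with opposite signs (limma).

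The 12 named genes with the largest differences in favour of N108A came from many pathways. They were picked among called genes whose N108A and L109A cultures did not overlap, so that separation is a rule and no result. SNZ1, a subunit of the enzyme that makes vitamin B6, had log2 ratios of 2.27 and 2.42 in N108A, 0.45 and 0.44 in L109A, and 0.55 and 0.83 in hht2-wt. Both N108A cultures stood above hht2-wt, and both L109A cultures lay below it. The change was 1.90 ± 0.13 (SE; adjusted p = 6.65e-07), a fold of 3.73. Its neighbour SNO1 on chromosome XIII encodes the glutaminase partner of Snz1. SNO1 was at 1.43 and 1.58 in N108A, 0.07 and 0.06 in L109A, and 0.33 and 0.28 in hht2-wt, a change of 1.43 ± 0.12 (adjusted p = 2.35e-06). Both L109A cultures again lay below hht2-wt.

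THI11, one of a family of near-identical genes for the thiamine precursor, was at 1.55 and 1.60 in N108A, 0.12 and 0.16 in L109A, and 0.21 and 0.13 in hht2-wt. The change was 1.44 ± 0.06 (adjusted p = 2.79e-09), and the probe may also bind RNA of its near-identical copies. GND2, an isoenzyme of the oxidative pentose phosphate pathway, was at 1.77 and 1.66 in N108A, against 0.38 and 0.28 in L109A. INO1, which makes inositol phosphate for phospholipid synthesis, was at 1.87 and 2.09 in N108A and 0.59 and 0.69 in L109A. SER3, the first enzyme of serine synthesis, was far above the reference in all 3 strains, at 3.69 and 3.68 in N108A, 2.43 and 2.27 in L109A, and 2.39 and 2.11 in hht2-wt. In GND2, INO1 and SER3 the L109A cultures thus lay near the control, and the changes between the mutants were 1.39 ± 0.11, 1.34 ± 0.11 and 1.34 ± 0.13.

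The other genes among the 12 highest were RTN2, a reticulon of the endoplasmic reticulum (1.31 ± 0.20), COS12, of a subtelomeric family (1.22 ± 0.19), and HUG1, a regulator of ribonucleotide reductase (1.20 ± 0.30). They also included BNA2, the first step from tryptophan towards NAD (1.19 ± 0.10), CUP1-2 (1.18 ± 0.13) and YDR131C (1.14 ± 0.06). HUG1 had the largest SE of them, although it was at 1.78 and 1.75 in N108A and 0.48 and 0.65 in L109A. The SE is estimated from all strains together, and HUG1 was at 3.67 and 2.11 in H4 Y98A. Its call was lost without culture b of N108A and without culture a of L109A. BNA2 was at 2.21 and 2.42 in N108A, 1.05 and 1.21 in L109A, and 1.28 and 1.20 in hht2-wt. In 11 of these 12 genes both N108A arrays stood above all 4 control arrays (hht2-wt and the H4 control hhf2-wt), the exception being CUP1-2. In 3 of the 12 they stood above all 18 arrays of the other strains, so most of these levels were not particular to N108A. The counts of 11 and 3 follow in part from picking genes by their excess in N108A. Matching counts over all probes were not made. Mean SNZ1 was 2.72 in H4 Y98A and 2.33 in H3 G44A, against 2.35 in N108A. Mean RTN2 was 2.48 in H3 G44A, against 1.78 in N108A.

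The 12 named genes lowest in N108A, picked by the same rule, also had varied roles. ARG3, which makes citrulline in arginine synthesis, was at 1.35 and 1.51 in N108A, 2.09 and 2.19 in L109A, and 2.20 and 2.21 in hht2-wt. Both N108A cultures lay below hht2-wt, and the change from L109A was −0.71 ± 0.11 (limma, adjusted p = 0.000576), a fold of 0.611. YCP4, a flavodoxin-like protein, was at −0.76 and −0.90 in N108A and −0.20 and −0.12 in L109A. SAM3, the permease for S-adenosylmethionine, was at −0.91 and −0.86 in N108A and −0.18 and −0.31 in L109A. CLB1 and CLB2, the main mitotic cyclins, changed by −0.62 ± 0.15 and −0.53 ± 0.08. The cultures of H4 Y98A, which enter the same SE, were at −0.82 and 0.05 for CLB1. CLB1 lost its call without culture a of L109A, whereas CLB2 kept it with each array left out.

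PUF6, an RNA-binding protein of ribosome assembly and of ASH1 repression, was at −0.53 and −0.20 in N108A, 0.25 and 0.24 in L109A, and 0.25 and 0.20 in hht2-wt. PTR2, the peptide transporter, changed by −0.59 ± 0.10, and KEI1, a subunit of the enzyme for inositol phosphorylceramide, by −0.59 ± 0.06. SPT4, a subunit of the elongation factor that travels with RNA polymerase II, was at −1.11 and −1.19 in N108A, −0.64 and −0.55 in L109A, and −0.56 and −0.47 in hht2-wt. RAP1, the DNA-binding protein of telomeres and ribosomal protein promoters, was at −0.75 and −0.70 in N108A and −0.10 and −0.27 in L109A. RPI1, a transcriptional regulator, and RPL38, a ribosomal protein gene, completed the 12 lowest at −0.51 ± 0.08 and −0.51 ± 0.10. In all 12 genes both N108A arrays lay below all 4 control arrays, and in 4 of them below all 18 arrays of the other strains. As with the highest genes, these counts follow in part from the picking rule and were not made over all probes. Of these 12 lowest and the 12 highest genes, 22 of 24 kept their call with each of the 4 arrays left out, HUG1 and CLB1 being the exceptions.

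**Figure D2:**
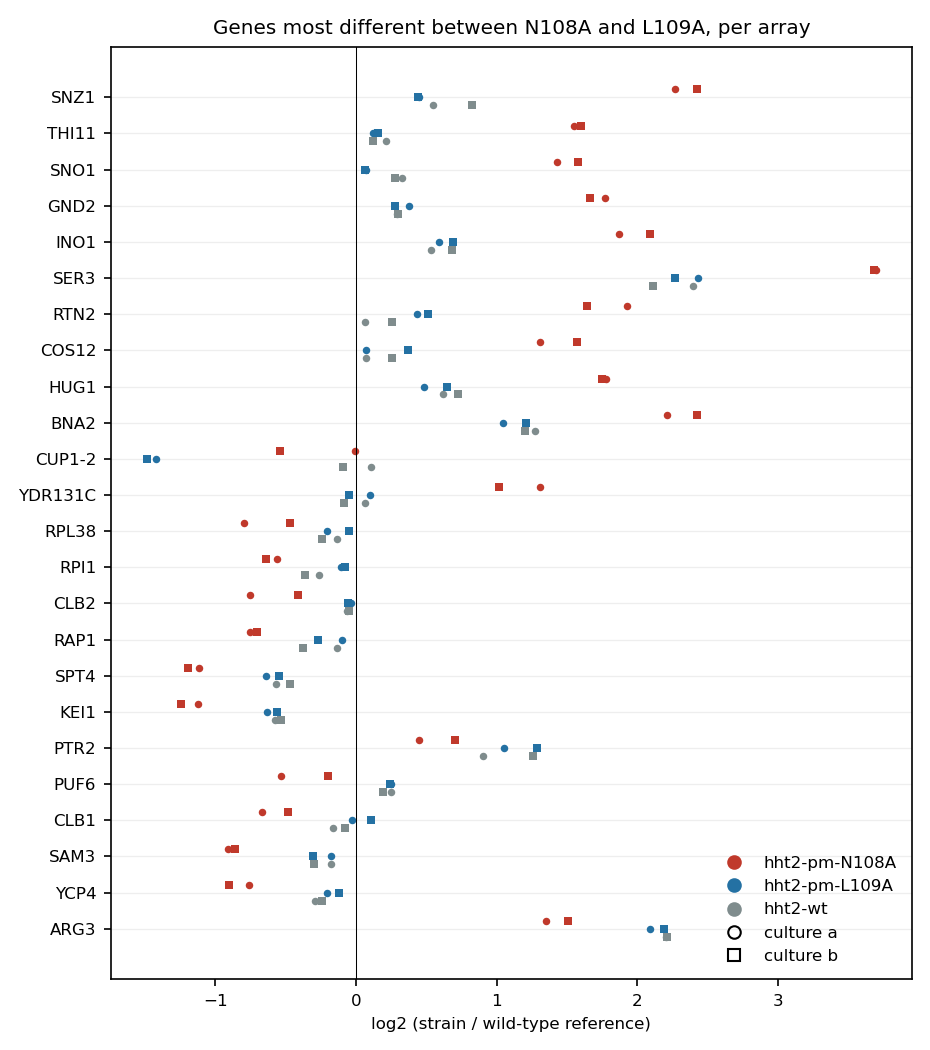
Log2 ratio of strain over the wild-type reference on each array for the 12 named genes highest and the 12 lowest in N108A relative to L109A, ordered by that difference. Red is N108A, blue L109A and grey hht2-wt, with circles for culture a and squares for culture b. Both L109A arrays lay within the range of the 4 control arrays (hht2-wt and hhf2-wt) for 2 of the 12 highest genes. They did so for 4 of the 12 lowest. CUP1-2 is the gene shown that was called in L109A against hht2-wt.

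The authors' deposited table, which gives each mutant against hhf2-wt, had the same signs for these genes. The differences between its N108A and L109A values were 1.81 for SNZ1, 1.52 for THI11, 1.17 for CUP1-2 and −0.72 for ARG3 in the authors' deposited table. Over 6182 probes, the difference taken from the authors' deposited table and the fitted one had a Pearson correlation of 0.969, with the same arrays behind both.

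The CUP1 locus separated the mutants through L109A. CUP1 encodes the metallothionein that binds copper, and it lies on chromosome VIII in a tandem repeat whose copy number is known to vary between strains. CUP1-2 was at −0.01 and −0.54 in N108A, −1.42 and −1.48 in L109A, and 0.11 and −0.09 in hht2-wt. The L109A cultures lay below both others, while one N108A culture lay within and the other below the hht2-wt values. N108A exceeded L109A by 1.18 ± 0.13 (adjusted p = 3.61e-05). L109A differed from hht2-wt by −1.46 (adjusted p = 9.92e-05), and N108A differed from it by −0.28 (adjusted p = 0.134). YHR054C, an open reading frame within the repeat, was at 0.30 and 0.24 in N108A, −0.59 and −0.54 in L109A, and 0.43 and 0.38 in hht2-wt. Its N108A minus L109A change was 0.84 ± 0.10 (adjusted p = 4.05e-05).

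The other 2 probes changed in L109A against hht2-wt carry no gene name here, and they were higher in N108A by 1.12 ± 0.14 and 0.85 ± 0.09. In L109A the first was at −1.34 and −1.39, near CUP1-2, and the second at −0.53 and −0.65, near YHR054C. Their values lay near those of CUP1-2 and YHR054C in H3 Q5A too, at −1.51 and −1.29 and at −0.47 and −0.59. Whether they bind RNA of the repeat was not tested. The nearest genes outside the repeat behaved differently: CPR2 was higher in N108A by 0.34 (adjusted p = 0.0106) and CIC1 lower, at −0.39 (adjusted p = 0.020, lost without culture a of N108A and without culture a of L109A), and L109A differed from hht2-wt by 0.08 at CPR2 and −0.01 at CIC1. Low CUP1-2 was not particular to L109A in level. H3 Q5A was at −1.48 and −1.28 and H4 Y98A at −1.12 and −1.14, while H3 G44A was at −0.10 and 0.06. Array data do not separate gene copy number from transcript level per copy. Among 11 measured copper genes, 4 (36.4%, against 15.6% of all probes) were higher in N108A than in L109A, which includes CUP1-2 itself. FRE7, a reductase of copper uptake, changed by 0.78 ± 0.15 and CTR3, a copper transporter, by 0.69 ± 0.09.

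**Figure D3:**
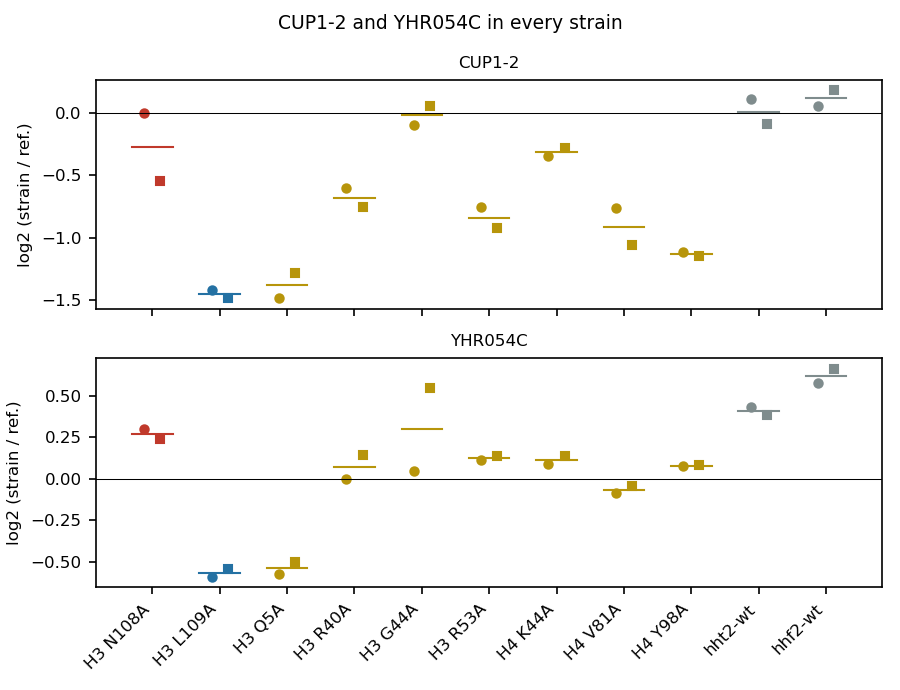
Log2 ratio of strain over reference for CUP1-2 (top) and YHR054C (bottom) in all 11 strains, with circles for culture a, squares for culture b and lines for the mean of both. L109A and Q5A are lowest at both probes and N108A is closer to the controls hht2-wt and hhf2-wt on the right.

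Histone genes differed in opposite directions. Histone genes measured numbered 11, of which 1 was higher and 4 were lower in N108A than in L109A, against 15.6% and 9.33% of all probes. The median change of the list was −0.18, against −0.00159 over all probes. With only the arrays compared, 1 histone gene was lower, and HHF2 was not called under median centring. The genes of H2A and H2B were the lower ones. HTA2 was at 0.64 and 0.59 in N108A, 0.86 and 0.86 in L109A, and 0.81 and 0.72 in hht2-wt, a change of −0.24 ± 0.05 (adjusted p = 0.00531). HTB2 and HTB1 changed by −0.28 ± 0.08 and −0.25 ± 0.07, and HTA1 by −0.18 ± 0.05. Calls for HTB2 and HTA1 were lost with any of the 4 arrays left out, and that for HTB1 without either culture of N108A and without culture a of L109A. HTA1 turned to 0.0041 under print-tip loess.

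HHF2, an H4 gene, was the higher one, at −0.12 and −0.31 in N108A, −0.75 and −0.43 in L109A, and −0.78 and −0.76 in hht2-wt. The HHF2 change of 0.38 ± 0.10 (adjusted p = 0.0146) lost the call without culture a of N108A and without culture a of L109A. HHT2 itself, the mutated H3 gene, was at −1.79 and −2.44 in N108A and −1.67 and −1.91 in L109A, with a change of −0.32 ± 0.14 that did not pass the threshold (adjusted p = 0.103). HHT1, the second H3 gene, had a difference of −0.07 that did not pass either. The H3 genes encode the same protein and the H4 genes do too, so probes within each pair may share RNA, and an exchange of single residues is not checked by these probes. Against hht2-wt, 1 of the 11 histone genes was higher and 1 lower in N108A, beside 1062 and 767 of the 6388 probes. The histone list's median difference from hht2-wt was −0.08 in N108A and 0.11 in L109A.

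**Figure D4:**
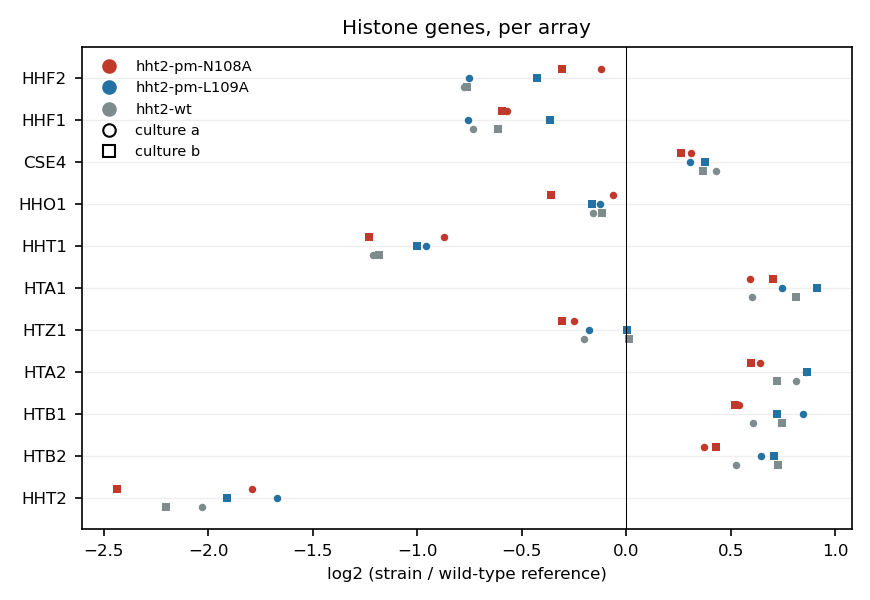
Log2 ratio of strain over reference for the 11 histone genes on each array of N108A (red), L109A (blue) and hht2-wt (grey), with circles for culture a and squares for culture b, ordered by N108A minus L109A. N108A lies left of L109A at HTA2, HTB1 and HTB2, and right of it at HHF2.

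Heat-shock and general stress genes were higher in N108A with the same list median of 0.39, and the share called in the main fit was larger for heat-shock genes. Of 24 measured heat-shock and chaperone genes, 20 were higher in N108A than in L109A and 4 did not pass the threshold, against 15.6% of all probes higher. The median change was 0.39. The median log2 ratio over the list was 0.28 and 0.22 in N108A, −0.12 and −0.17 in L109A, and −0.07 and −0.14 in hht2-wt. HSP42, a small heat-shock protein, was at 1.79 and 1.25 in N108A and 0.46 and 0.56 in L109A. SSA4, a stress-inducible Hsp70, was at 2.34 and 2.02 in N108A, 1.28 and 1.23 in L109A, and 1.04 and 0.80 in hht2-wt. BTN2, which sorts misfolded proteins, changed by 0.82 ± 0.10, and the disaggregase HSP104 by 0.77 ± 0.19. HSP104 lost its call without culture a of N108A and without culture a of L109A, and 12 of the 24 genes were called higher without culture a of L109A. Median centring gave 10 of the 24, and the fit without a dye term 13.

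Among 57 general stress-induced genes, of the kind controlled by Msn2 and Msn4, 26 (45.6%) were higher in N108A than in L109A and 31 did not pass. The median change was 0.39. The list's median log2 ratio was 0.79 and 0.68 in N108A, 0.26 and 0.35 in L109A, and 0.09 and 0.17 in hht2-wt. Both L109A values thus lay between those of N108A and hht2-wt. Against hht2-wt, 45 of the 57 were higher in N108A, beside 18 of the 24 heat-shock genes and 1062 of the 6388 probes. The stress list's median difference from hht2-wt was 0.51 in N108A and 0.12 in L109A. Median centring gave 23 of the 57 higher than in L109A, and the fit without a dye term 22. Without culture a of L109A, 10 of the 57 were called higher than in L109A. Of 34 proteasome genes, 8 (23.5%, against 15.6% of all probes) were higher (median change 0.12), led by the core subunit PRE1 at 0.38 ± 0.05 and the ATPase RPT6 at 0.38 ± 0.07, and 2 were called without culture a of L109A. The proteasome count was 2 with only the arrays compared and 3 under median centring.

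The lists of carbon genes differed in how many members passed. Of 14 measured genes for maltose and other sugars, 7 were higher (against 15.6% of all probes) and 7 did not pass, with a median change of 0.27. MAL12, a maltase, was at 1.12 and 1.25 in N108A, 0.18 and 0.12 in L109A, and 0.09 and 0.04 in hht2-wt. The change was 1.03 ± 0.08 (adjusted p = 8.58e-07). MAL33, the MAL activator gene, was at 1.04 and 1.20 in N108A and 0.19 and 0.19 in L109A. IMA4, an isomaltase, changed by 0.77 ± 0.09 and SOR2, a sorbitol dehydrogenase homologue, by 0.72 ± 0.09. Several of these sugar genes belong to families with near-identical copies, which the probes may not separate. With each of the 4 arrays left out, between 7 and 9 of the 14 were called higher.

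Among 21 trehalose and glycogen genes, 5 (23.8%, against 15.6% of all probes) were higher and 1 lower. GDB1, the glycogen debranching enzyme, was at 0.91 and 1.11 in N108A and 0.13 and 0.31 in L109A, while PGM1, the minor phosphoglucomutase, changed by −0.32 ± 0.07 and lost its call without culture a of L109A. Without that array 1 of the 21 was called higher, and without culture b of L109A 2 were. Of 13 pentose phosphate genes, 4 (30.8%) were higher, among them GND2 and the transketolase isoform TKL2 (0.45 ± 0.05), and 2 were called without culture a of L109A. Of 20 hexose transporter and kinase genes, 4 were higher, a share near the 15.6% of all probes. That count was 2 with any of the 4 arrays left out, 1 under median centring and 7 under print-tip loess. HXK1, a hexokinase repressed by glucose, was at 1.45 and 1.01 in N108A, 0.35 and 0.36 in L109A, and −0.25 and 0.16 in hht2-wt. Its change of 0.87 ± 0.30 (adjusted p = 0.0444) was lost with any of the 4 arrays left out, while HXT17, a hexose transporter of low expression, kept its change of 0.35 ± 0.06.

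Vitamin genes went beyond SNZ1 and SNO1. Of 19 measured vitamin B6 and thiamine genes, 12 (63.2%, against 15.6% of all probes) were higher and 1 lower in N108A, with a median change of 0.29. SNZ3, a near-identical relative of SNZ2, was at 0.92 and 0.85 in N108A and 0.33 and 0.34 in L109A, a change of 0.54 ± 0.09. The list's median log2 ratio was 0.45 and 0.50 in N108A, 0.07 and 0.16 in L109A, and 0.20 and 0.13 in hht2-wt. Without culture a of L109A, 7 of the 19 were called higher. Of 14 genes for NAD synthesis, 5 (35.7%) were higher, with BNA2 leading by far, and 2 were with only the arrays compared. BNA4, a later step of the kynurenine route, changed by 0.32 ± 0.08 and BNA1 by 0.33 ± 0.08. Both calls were lost without culture a of N108A and without culture a of L109A, and that of BNA4 also without culture b of L109A. The 1 gene still called without culture a of L109A was BNA2.

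DNA damage-induced genes were higher in part. Of 17 measured, 7 (41.2%, against 15.6% of all probes) were higher in N108A than in L109A and 10 did not pass, with a median change of 0.15. RNR4, a subunit of ribonucleotide reductase, was at 0.92 and 0.83 in N108A, 0.10 and 0.23 in L109A, and 0.09 and 0.22 in hht2-wt. The change was 0.71 ± 0.07 (adjusted p = 8.81e-06). DDI2 and DDI3, identical copies of a cyanamide hydratase gene, changed by 0.90 ± 0.06 and 0.97 ± 0.09, and their probes cannot tell the copies apart. Between 5 and 7 genes of the list were called with each array left out.

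Genes of meiosis and of the chromosome ends were higher in part. The meiosis list also holds the mitotic cyclin gene CLB1, which is 1 of its 2 lower members. Of 61 meiosis and sporulation genes, 27 (44.3%, against 15.6% of all probes) were higher and 2 lower, with a median change of 0.18. DIT1, which makes the dityrosine of the spore wall, was at 1.52 and 1.52 in N108A, 0.38 and 0.44 in L109A, and 0.41 and 0.42 in hht2-wt, a change of 1.11 ± 0.09. LOH1, a spore wall gene, changed by 0.70 ± 0.08. With culture a of L109A left out, 8 of the 61 were called higher, under median centring 14 and with only the arrays compared 16. Of 25 measured genes of the PAU and COS families, 7 (28.0%, against 15.6% of all probes) were higher and 1 lower, and the median change was 0.36. With only the arrays compared, 18 were higher and 1 lower, while 5 or 6 were higher with 1 of the 4 arrays left out. COS12 was at 1.31 and 1.57 in N108A, 0.08 and 0.37 in L109A, and 0.07 and 0.26 in hht2-wt. COS8 and COS4 changed by 0.55 ± 0.11 and 0.48 ± 0.08. Members of these families share long stretches of sequence, so their probes may share RNA.

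Some cell surface genes were higher too. Of 27 measured wall mannoprotein genes, 8 (29.6%, against 15.6% of all probes) were higher and 19 did not pass, with a median change of 0.19. TIP1, a wall mannoprotein, was at 0.19 and 0.18 in N108A, −0.47 and −0.38 in L109A, and −0.77 and −0.71 in hht2-wt. L109A lay between the other strains at TIP1, and N108A exceeded it by 0.61 ± 0.07 (adjusted p = 3.19e-05). FLO9, a flocculin, and PIR3, a covalently bound wall protein, changed by 0.53 ± 0.09 and 0.52 ± 0.09. Between 4 and 6 of the list were called with each array left out, and 5 under median centring. Of 23 pheromone response genes, 5 (21.7%, against 15.6% of all probes) were higher, led by FIG1 (0.76 ± 0.26), PRM2 (0.74 ± 0.18), FIG2 (0.69 ± 0.19) and FUS2 (0.35 ± 0.09). These 4 genes of mating cell fusion and projection lost their calls without culture b of N108A and without culture a of L109A, and all but PRM2 also without culture b of L109A. ASG7, an a-specific gene, was at 1.99 and 2.23 in N108A, 1.48 and 1.62 in L109A, and 1.98 and 1.97 in hht2-wt (adjusted p = 0.102). STE3, the alpha-specific receptor for a-factor, was at −3.15 and −3.24 in N108A and −3.70 and −3.62 in L109A, a change of 0.47 ± 0.08 at levels far below the reference.

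A minority of ribosome assembly genes passed as lower in N108A. Of 92 measured genes for ribosome biogenesis and RNA polymerase I, 28 (30.4%) were lower and 64 did not pass, against 9.33% of all probes lower, and the median change was −0.18. The list's median log2 ratio was −0.09 and 0.06 in N108A, 0.19 and 0.14 in L109A, and 0.20 and 0.17 in hht2-wt. NOG1, a GTPase of large subunit assembly, was at −0.41 and −0.27 in N108A, 0.07 and 0.08 in L109A, and 0.01 and −0.04 in hht2-wt, a change of −0.42 ± 0.07 (adjusted p = 0.000808). DBP9, an RNA helicase, and CIC1, a large subunit assembly factor, changed by −0.43 ± 0.09 and −0.39 ± 0.11. Both lost their calls without culture a of N108A and without culture a of L109A. The count moved with single arrays: 2 of the 92 were called lower without culture a of L109A, 3 without culture a of N108A, 19 without culture b of L109A and 37 without culture b of N108A. With only the arrays compared 7 were called lower, and without a dye term 17. The list's median stayed between −0.25 and −0.10 under all settings tried.

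Of 125 cytosolic ribosomal protein genes, 21 (16.8%, against 9.33% of all probes) were lower and 3 higher, with a median change of −0.07. This list depended on the normalization: under median centring 94 were lower with a median of −0.345, and under print-tip loess 34 were lower with a median of −0.07. RPL38 was at −0.79 and −0.47 in N108A, −0.21 and −0.05 in L109A, and −0.14 and −0.24 in hht2-wt. RPL16A changed by −0.40 ± 0.07. The higher genes included RPL41A (0.43 ± 0.11) and RPL41B (0.41 ± 0.11), which encode the same short peptide. Both lost their calls without culture a of N108A and without culture a of L109A, and RPL41B had the opposite sign, −0.17, in the authors' deposited table. Without either culture of L109A, left out singly, 7 of the 125 were called lower, without culture b of N108A 8, without a dye term 9 and with only the arrays compared 10. Of 73 mitochondrial ribosomal protein genes, 6 (8.22%, against 9.33% of all probes) were lower and 3 higher, with a median of 0.000198. Without culture b of N108A the balance turned, with 6 higher and 0 lower in limma's fit, and without culture a of L109A 1 was higher and 1 lower.

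Most of the cell cycle genes that passed were lower. Of 39 measured G1/S genes, 11 (28.2%, against 9.33% of all probes) were lower and 28 did not pass, with a median of −0.14. POL1, the catalytic subunit of DNA polymerase alpha, was at −0.26 and −0.28 in N108A, 0.04 and −0.01 in L109A, and −0.07 and −0.08 in hht2-wt, a change of −0.28 ± 0.06. MCD1, a cohesin subunit, changed by −0.27 ± 0.06 and CSI2 by −0.30 ± 0.05. Without culture a of L109A, and likewise with only the arrays compared, 3 of the 39 were called lower, and 6 under median centring. Of 34 genes expressed in M phase and at the M/G1 boundary, 5 (14.7%) were lower and 1 higher, CDC6, a replication licensing factor at 0.21 that was named after its value was seen. CLB2 was at −0.75 and −0.41 in N108A, −0.04 and −0.06 in L109A, and −0.07 and −0.05 in hht2-wt. DSE3, a daughter-cell gene, changed by −0.31 ± 0.05. Between 2 and 6 of the list were called lower with each array left out.

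Among 61 chromatin remodellers and histone-modifying enzymes, 11 were lower (against 9.33% of all probes) and 2 higher, with a median of −0.07. ISW2, the ATPase of a nucleosome-sliding complex, was at −0.60 and −0.58 in N108A, −0.05 and −0.18 in L109A, and −0.18 and −0.39 in hht2-wt. The change was −0.47 ± 0.07 (adjusted p = 0.00033). SWI1, a SWI/SNF subunit, was at −0.55 and −0.46 in N108A, −0.14 and −0.15 in L109A, and −0.31 and −0.27 in hht2-wt, with L109A above the control. RSC3 of the RSC complex changed by −0.33 ± 0.09, a call lost without culture a of N108A and without either culture of L109A. With culture a of L109A left out, 3 of the 61 were called lower, with only the arrays compared 5 and under median centring 7. Of 26 histone chaperone and elongation factor genes, SPT4 was the 1 called.

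Of 18 measured mitochondrially encoded genes, 5 (27.8%, against 9.33% of all probes) were lower and all 18 had values below 0, with a median of −0.15. Under median centring, and likewise with only the arrays compared, 2 were called lower. AI5_BETA, an intron-encoded open reading frame, was at −0.23 and −0.45 in N108A, 0.08 and 0.07 in L109A, and 0.12 and −0.10 in hht2-wt, and its change of −0.41 ± 0.09 lost the call without culture b of N108A. ATP8, a subunit of ATP synthase, changed by −0.38 ± 0.11, a call lost without culture b of N108A and without either culture of L109A. In the fit lacking culture a of L109A, 1 of the 18 was called. Among 41 nuclear genes of oxidative phosphorylation, 5 (12.2%) were lower and 1 higher, with COX4 at −0.39 ± 0.10, lost with any of the 4 arrays left out. No member was called lower in limma's fit without culture b of N108A or without culture b of L109A. These RNAs were measured in whole cultures, where fewer cells with an RNA and less RNA per cell cannot be told apart.

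Several nutrient lists held calls in both directions, some at shares near those of all probes, 15.6% higher and 9.33% lower. In arginine metabolism, 5 of 16 measured genes (31.2%) were higher and 3 (18.8%) lower in N108A, and 2 were higher under median centring. The lower ones were ARG3, ARG8 (−0.42 ± 0.08) and ARG1 (−0.50 ± 0.17), all synthesis enzymes, and ARG1 lost its call with any of the 4 arrays left out. Without culture b of N108A, and likewise without culture a of L109A, 1 arginine gene was called higher. CAR2, an arginine breakdown enzyme, was at −0.77 and −0.99 in N108A, −1.41 and −1.33 in L109A, and −1.45 and −1.36 in hht2-wt. Of 45 amino acid synthesis genes under Gcn4, 6 (13.3%) were higher and 5 (11.1%) lower, shares near those of all probes. Of these 45, 2 were lower without culture a of either mutant and 3 were higher under median centring. The lysine genes LYS1 and LYS9 changed by 0.70 ± 0.08 and 0.61 ± 0.09, and HIS4 by −0.40 ± 0.08. LYS1 was at 1.11 and 0.88 in N108A, 0.33 and 0.27 in L109A, and 0.48 and 0.55 in hht2-wt, with L109A below the control.

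In the serine, glycine and one-carbon list, SER3 and CHA1 were higher (11.8%) and GCV1 lower (5.88%) among 17 genes. These shares were below those of all probes, 15.6% higher and 9.33% lower. CHA1, which breaks down serine and threonine, was at 0.91 and 0.75 in N108A and −0.08 and −0.17 in L109A, a change of 0.95 ± 0.12. GCV1 of the glycine cleavage system changed by −0.46 ± 0.07. Of 29 methionine and sulphur genes, 5 (17.2%) were higher and 5 (17.2%) lower. MET6, methionine synthase, changed by 0.56 ± 0.10 and JLP1, a sulphonate dioxygenase, by 0.47 ± 0.06, while SAM3 was the lowest. Of 29 iron regulon genes, 6 (20.7%) were higher and 5 (17.2%) lower. BIO4, a biotin synthesis gene, was at 2.05 and 2.02 in N108A, 1.06 and 1.30 in L109A, and 1.32 and 1.39 in hht2-wt. ARN2, a siderophore transporter, changed by 0.55 ± 0.08. FET3, the iron oxidase, and SIT1, a siderophore transporter, changed by −0.48 ± 0.16 and −0.48 ± 0.13, and both calls were lost without culture a of N108A and without either culture of L109A, that of FET3 also without culture b of N108A. With culture a of L109A left out, 1 methionine gene and 1 iron gene were called lower.

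Of 17 phosphate genes, 6 (35.3%) were higher and 2 (11.8%) lower, with a median of −0.00178. PHO89, the sodium-phosphate cotransporter, was at 0.44 and 0.55 in N108A, −0.11 and −0.07 in L109A, and −0.15 and −0.04 in hht2-wt. PHO12, an acid phosphatase with near-identical relatives, changed by 0.63 ± 0.09. Purine synthesis had 4 genes higher (21.1%) and 2 lower (10.5%) of 19. Ergosterol synthesis had 3 higher (11.1%) and 2 lower (7.41%) of 27, and the zinc regulon 3 higher (23.1%) of 13. Over all probes 15.6% were higher and 9.33% lower. At most 1 purine, 2 ergosterol and 1 zinc gene were called higher with any of the 4 arrays left out, and none of the 3 lists had a gene called higher under median centring in limma's fit. HXK1 and HPF1, a wall mannoprotein (0.43 ± 0.15), were among the called genes with the largest L109A minus hht2-wt values, 0.41 and 0.36, which did not pass the threshold. HPF1 lost its N108A minus L109A call without culture a of N108A and without either culture of L109A. HMO1, a high-mobility group protein of ribosomal gene chromatin, was another. It was at 0.00 and −0.05 in N108A, −0.45 and −0.38 in L109A, and −0.11 and 0.11 in hht2-wt, so its change of 0.39 ± 0.08 came with L109A below the control by −0.41 (adjusted p = 0.135) and N108A at −0.03.

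**Figure D5:**
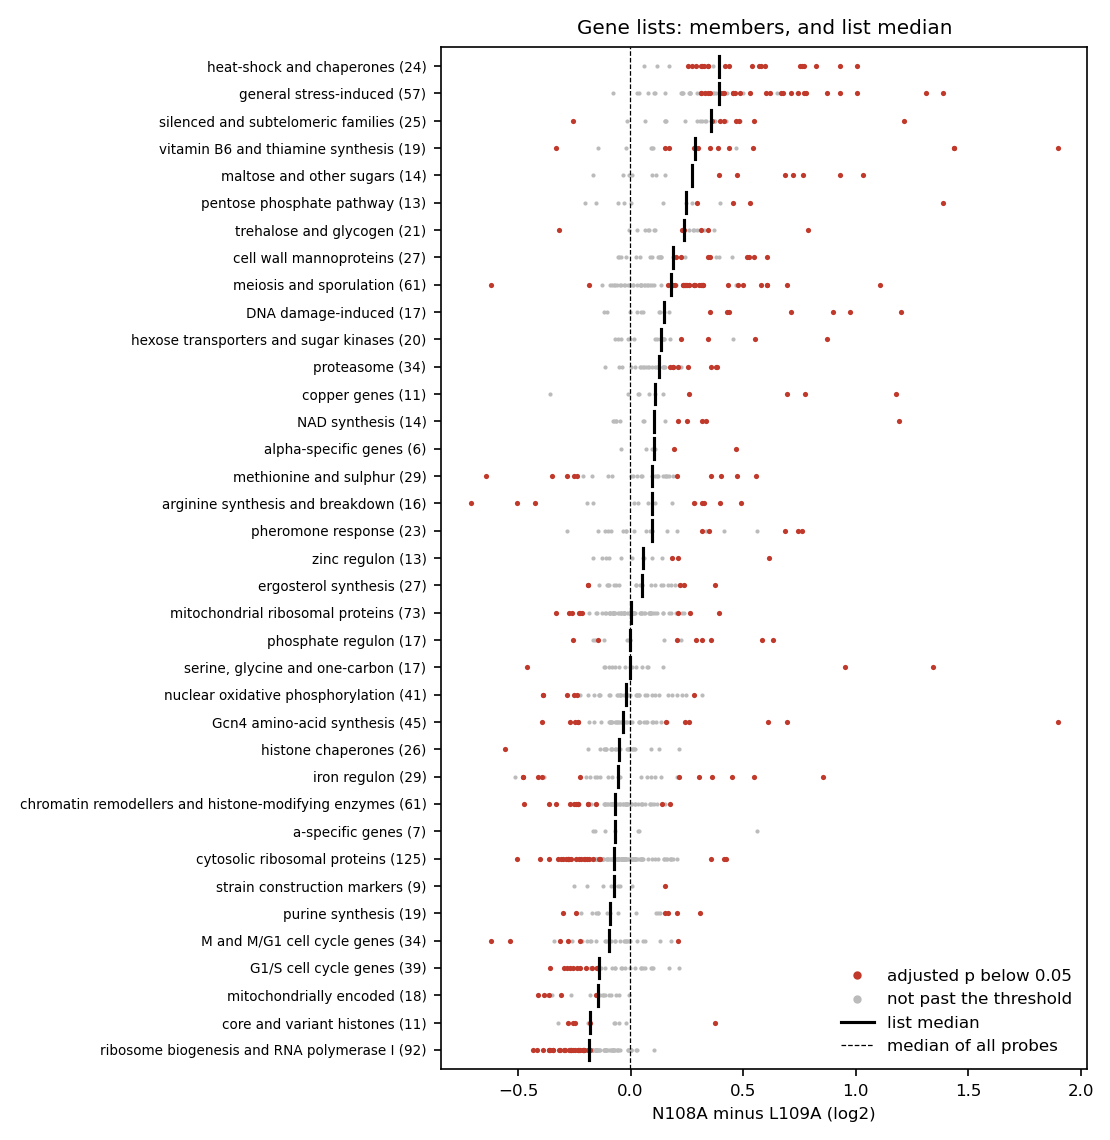
N108A minus L109A on the log2 scale for each measured member of the 37 gene lists, with the number of measured members in brackets, ordered by list median (black bar). Red points passed an adjusted p of 0.05 and grey points did not, and the dashed line is the median of all probes; heat-shock and stress lists have medians of 0.39 and ribosome biogenesis −0.18.

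Chromosome medians were close to 0. The median change per nuclear chromosome lay between −0.019 on XIV and 0.058 on VI, and the mitochondrial genes had −0.137. Chromosome VI held 26 genes called higher and 7 lower of 112, or 29.5% called. Over all probes 24.9% were called, 15.6% higher and 9.33% lower. The medians of chromosome VI were 0.07 and 0.06 in the a and b pairs of cultures.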

How the data were processed

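Two-colour spotted arrays measured RNA of 11 yeast strains, 2 cultures each, against a common reference. Per the file headers, the authors deposited scanner intensity values (spot mean, spot median, local background) for 15552 spots per array; the authors' value table and fold changes are log2 ratios. Per the deposited protocol, the authors used print-tip loess on gene probes without background subtraction, a dye correction, and limma 2.12.0. Dyes were taken from the labels, while the series text states the opposite order. That order would turn the sign of every ratio and of every N108A minus L109A change given here. Markers with the same direction on all arrays do not tell the orders apart. Some cell type markers did change level between the 22 arrays. With the dyes as labelled, STE2 ran from 0.4 to 5.22 and FUS3 from −2.57 to 0.61, while MF(ALPHA)2 stayed between −5.4 and −4.2. Which dye order is right was not tested. The value table's sign was opposite to the labels' on 3 arrays, among them culture a of L109A, and was turned for use as an alternative.

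Mean signals were background-corrected (normexp, offset 50), loess-normalized within arrays on gene spots, turned to strain over reference, and averaged over the 2 spots of each of 6388 gene probes. Names came from the platform annotation updated through RefSeq R64 names: 5326 probes had a name and 1062 had none. For 15 symbols with 2 probes, the probe matched by symbol, then the lower ID, was used; 3 pairs differed in call. limma 3.58.1 (R 4.3.3) fitted strain means and dye orientation over all 22 arrays, with Benjamini-Hochberg adjustment and a threshold of 0.05; SE is the moderated standard error. The fit has 10 residual degrees of freedom. The culture letter coincides with the dye, so the dye term is the replicate block; differences between cultures a and b correlated at 0.334 across probes between N108A and L109A. Cultures came from independent colonies, per the deposited protocol. The p-values rest on the spread between the 2 cultures of a strain, pooled over all 11 strains. A large SE can thus come from strains other than N108A and L109A. The small number of arrays limits the precision.

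Genes named were the 12 highest and 12 lowest called genes whose cultures do not overlap, histone, marker and cell type genes, up to 4 called members of each of 37 lists, and genes changed in L109A or with large L109A values. Lists are described by counts and medians, with no set test. Members and lists were chosen with earlier results of these data known. The fit was tested on simulated data. Alternatives were fewer arrays, no dye term, other background and normalization, single spots, a filter on dim probes, the value table, stricter thresholds and leaving out each array; spot medians and counts per list under each setting were added after seeing the data.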

Additional observations from a re-analysis of the deposited data

Results flagged for a closer look

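These genes are listed because L109A alone was called against hht2-wt, or because both N108A cultures moved away from both hht2-wt cultures in one direction and both L109A cultures in the other; that the 2 mutants' effects oppose each other around hht2-wt was not tested beyond the N108A minus L109A change. How many of all probes meet the second rule was not counted, so this list has no share to be set against. With 2 cultures a strain, L109A can fall on one side of hht2-wt by chance. Each value is the fitted N108A minus L109A change on the log2 scale, called in limma's fit. The first kind were CUP1-2 at 1.18, YHR054C at 0.84 and 2 probes without a gene name at 1.12 and 0.85.

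Genes with N108A above and L109A below hht2-wt were SNZ1 at 1.90, SNO1 at 1.43, BIO4 at 0.86, FRE7 at 0.78, FIG1 at 0.76, LYS1 at 0.70 and LYS9 at 0.61. RPL41A at 0.43, RPL41B at 0.41, the mitochondrial ribosomal protein gene YML6 at 0.39, and the proteasome genes RPT6 at 0.38, RPN13 at 0.36 and PRE3 at 0.26 did the same.

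Genes with N108A below and L109A above hht2-wt were YCP4 at −0.67, CLB1 at −0.62, RPI1 at −0.51, NOG1 at −0.42, RRP12 at −0.36, SWI1 at −0.36, RSC3 at −0.33, POL1 at −0.28, PCL9 at −0.28 and HTA2 at −0.24. For all of these except CUP1-2, YHR054C and the 2 probes without a gene name, the L109A value alone did not pass the threshold against hht2-wt. Calls of FIG1, RPL41A, RPL41B, RPN13, PRE3, CLB1, RRP12, RSC3 and PCL9 were lost without culture a of L109A.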

How the results depend on the processing

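Of 143 named genes called in N108A minus L109A, 73 kept call and direction under every setting and 78 with each of the 4 arrays left out. Without an array, 450 to 724 probes were higher and 129 to 408 lower in N108A than in L109A, 925 to 1428 changed in N108A against hht2-wt, the lowest without culture a of hht2-wt, and 4 to 8 in L109A against hht2-wt. Without the replicate block, which is the dye term, 648 probes were higher and 256 lower, 1120 changed in N108A against hht2-wt, and 31 named genes lost their call. Median centring gave 590 higher. With only the arrays compared, 208 were lower in N108A than in L109A and 8 changed in L109A against hht2-wt, as did 8 in the authors' value table. At least 1.7-fold left 98 higher and 0 lower, and an adjusted p below 0.01 left 562 and 191. Signs turned for RPL41B in the authors' value table (−0.17) and for HTA1 under print-tip loess (0.0041); the cause was not tested. Headers used here give no slide or scan batch, so no batch block was run. Spot medians, added after seeing the data, gave 910 higher and 463 lower. The filter on dim probes kept 5927 probes, and 4 called probes were above background on neither array of a strain.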

Other observations

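A group of 35 probes, picked after seeing the plot of both culture pairs, was far higher in N108A than in L109A in cultures b and less so in cultures a. It was defined by a difference above 1 in cultures b and between 0.2 and 0.6 in cultures a. The named probes were YPR158W-A, YMR046C, YDR170W-A and YDR210C-C, which are open reading frames of the Ty1 retrotransposon, and 2 probes of PRM7, a pheromone-regulated gene; 29 probes carry no name here. Over the group, the median log2 ratio was 2.15 and 2.86 in N108A, 1.75 and 1.60 in L109A, and 1.42 and 1.97 in hht2-wt. The median difference was 0.39 in cultures a and 1.26 in cultures b, values set by the bounds that picked the group. Of the 35, 9 passed the threshold, where 24.9% of all probes were called and 15.6% were called higher. That count also follows in part from the bounds. YDR210C-C changed by 0.94 ± 0.31 (adjusted p = 0.0405), and the YMR046C difference of 0.87 ± 0.31 did not pass (adjusted p = 0.0522). Copies of such repeated elements share sequence, so these probes do not give independent values.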
